A study of Rattus norvegicus with 24 samples.

Results

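Small leucine-rich proteoglycans are secreted proteins of the extracellular matrix, and 5 of them, biglycan (Bgn), decorin (Dcn), lumican (Lum), fibromodulin (Fmod) and osteoglycin (Ogn), were followed through 30 days of daily resistance training of rat tibialis anterior, a dorsiflexor muscle at the front of the lower leg. The 5 genes were taken by symbol, with earlier results of these data known, and their 6 transcripts were summed per gene; they are 5 of the 15273 gene symbols listed, and all 5 were among the 11196 genes kept by a minimum of 1 in 3 or more muscles. In adult male Wistar rats the left muscle was trained once a day through an implanted nerve stimulator, a protocol named SpillOver, for 2, 10, 20 or 30 days, and the unstimulated right muscle of the same rat served as contralateral control. Both muscles of 3 rats per time point were sequenced, 24 libraries from 12 rats, with RNA taken 1 h after the last bout. All rats carried the implant, so the contralateral muscles came from operated and trained animals; sham-operated rats were not analysed here.

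The protein core of these molecules is a curved stack of leucine-rich repeats that binds collagen fibrils and sets their spacing and diameter. Decorin and biglycan, both of the first class, carry chondroitin or dermatan sulfate chains and bind transforming growth factor beta. In soluble form biglycan is a ligand of Toll-like receptors. Lumican and fibromodulin belong to the second class, carry keratan sulfate chains and share a binding region on type I collagen, whereas osteoglycin, of the third class, is a smaller proteoglycan also known as mimecan. In muscle these genes are expressed mainly by fibroblasts of the connective tissue, and biglycan by muscle fibers as well.

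The deposited name calls the values DESeq2-normalized counts, but they have the same total in every sample and are not whole numbers. They were therefore read as transcript levels scaled for transcript length and for the sample's total. The scaling for length was not tested, and comparisons of level between genes rest on it. Divided here by a sample factor, they are called scaled values below. The files keep no read numbers, so the depth behind each value, and the precision it gives, is unknown. Fold changes refer to log2(scaled value + 1), which understates changes of genes near 1. A rise given as a fold is this log2 change turned back from its scale. It is not the ratio of the scaled values printed beside it. They were tested with limma across all 11196 genes with Benjamini-Hochberg adjustment and a threshold of 0.05, each trained group of 3 against the 12 contralateral muscles. A second fit paired the trained with the contralateral muscle of the same rat, by a term for each rat, and is given where it changed a call. The sample factors ran from 0.778 to 1.137. With the same total in every sample, they reflect differences in composition between libraries. They were 1.047 to 1.105 in the trained muscles of 2 days and 0.807 to 0.915 in those of 30 days. Results on the values as deposited, without these factors, are given at the end. The sum of 8 muscle fiber markers such as Ckm and Acta1 was 74624 to 89512 in contralateral and 52807 to 91155 in trained muscles.

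In Rnor_6.0, Dcn lies on chromosome 7 from 38742051 to 38782324 on the plus strand and Lum follows it on the same strand from 38819771 to 38826863, 37.4 kb away. Keratocan (Kera), another gene of the family, starts 31.2 kb past Lum. Fmod lies on chromosome 13 from 50873605 to 50885564 on the plus strand, 112.2 kb from Prelp, which encodes a related protein of the family. Ogn lies on chromosome 17 from 15447716 to 15467360 on the minus strand, 28.4 kb from asporin (Aspn), and Bgn on chromosome X from 157319046 to 157331205 on the minus strand. Each member had 1 listed protein-coding transcript except Ogn with 2. Of these Ogn-202 carried most of the signal on average, with a mean of 4.06 over the 24 muscles against 0.268 for Ogn-201. In the contralateral muscles of rat 2 of 20 days and rat 3 of 30 days Ogn-201 was the higher, at 1.79 against 0.53 and 1.90 against 1.65.

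Promoter windows are shown for Lum and Fmod, 2 members of the same class, of which Lum passed the tests below at every time and Fmod at none against the pooled controls. Each window runs from 250 bases before to 50 bases after the gene's start in RefSeq for build GRCr8, 5′ to 3′ on the gene's strand, at chr7:34245456-34245755 for Lum and chr13:48045317-48045616 for Fmod. Capitals mark motif matches. Bgn and Dcn had no entry in the table used.
Lum: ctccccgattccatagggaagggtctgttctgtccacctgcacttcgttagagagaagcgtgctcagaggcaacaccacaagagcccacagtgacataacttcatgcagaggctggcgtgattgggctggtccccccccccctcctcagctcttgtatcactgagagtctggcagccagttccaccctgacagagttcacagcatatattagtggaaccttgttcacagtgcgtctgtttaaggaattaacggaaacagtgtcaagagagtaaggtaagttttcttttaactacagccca
Fmod: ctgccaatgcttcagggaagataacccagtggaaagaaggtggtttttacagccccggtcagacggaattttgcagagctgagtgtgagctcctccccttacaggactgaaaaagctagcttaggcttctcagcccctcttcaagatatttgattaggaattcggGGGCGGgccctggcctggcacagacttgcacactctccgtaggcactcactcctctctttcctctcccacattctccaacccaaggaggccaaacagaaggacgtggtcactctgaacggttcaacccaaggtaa
The windows were searched on both strands for the AP-1 site (TGACTCA or TGAGTCA, which are each other's reverse complement), the cAMP response element (TGACGTCA), the E-box (CACGTG), the GC box (GGGCGG), the TATA box (TATAAA), the M-CAT element (CATTCC) and the Smad box (GTCTAGAC or CAGACA). The Fmod window held 1 match, a GC box starting at -85 from the gene's start, a motif found in 33.1% of the 33469 rat promoter windows. The Lum window held none of these letters, and neither window held an AP-1 site, which was present in 4.63% of all windows.

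In contralateral muscle decorin had by far the highest values of the 5 genes. Its scaled value was 64.4 ± 21.7 (SD, n = 12), and its lowest muscle, at 32.4, lay above the highest value of every other member. Lum was at 7.71 ± 2.32, Bgn at 5.64 ± 1.31, Fmod at 4.56 ± 1.72 and Ogn at 3.63 ± 3.02 (SD, n = 12). The ranges of neighbours in that order overlapped among those 4 genes, so their order is not fixed beyond the spread between muscles. Decorin made up 74.1% ± 5.11 of the 5-gene total, Lum 9.04% ± 1.14 and Bgn 7.15% ± 2.63.

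**Figure D1:**
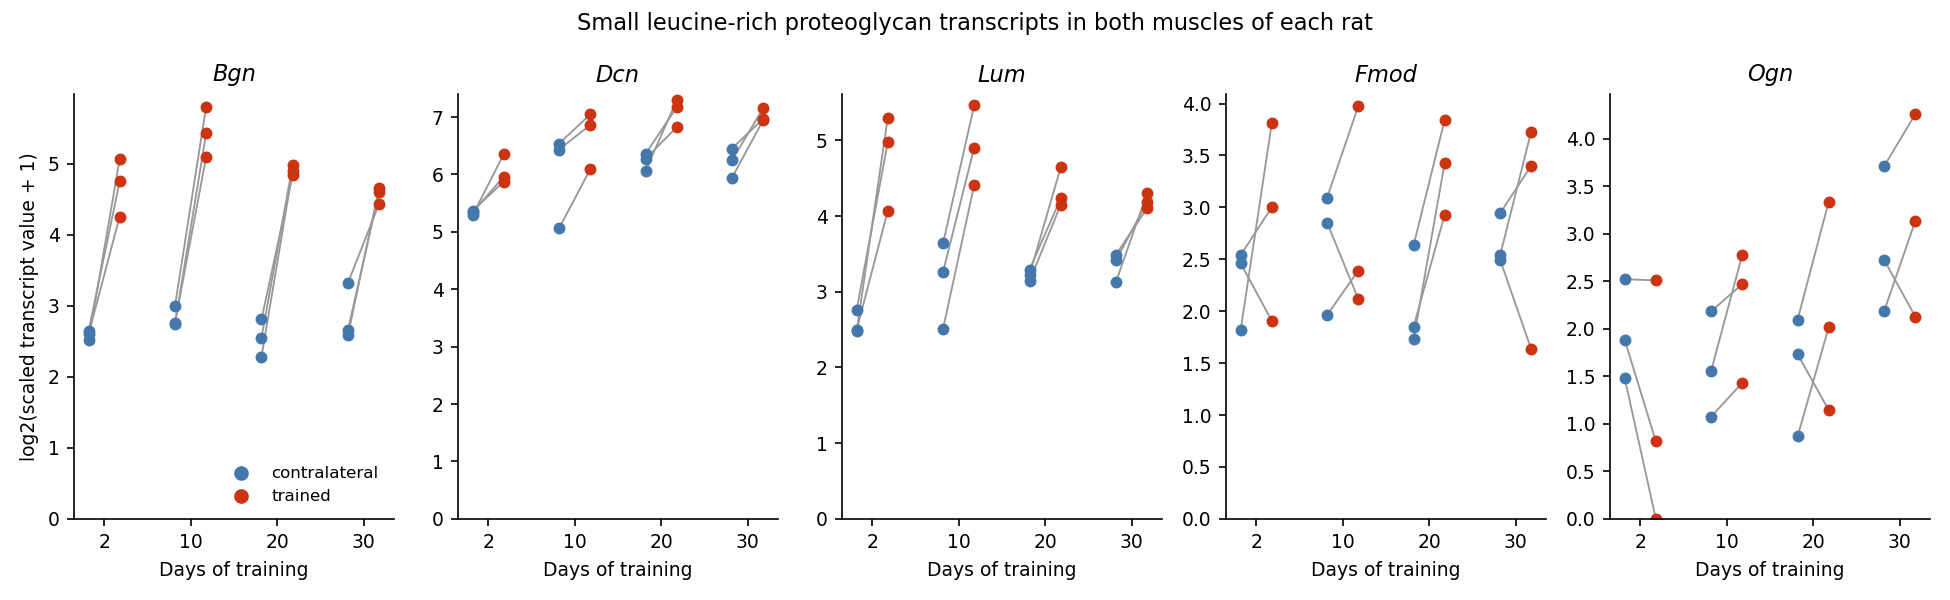
Scaled values on the log2(value + 1) scale in the contralateral (blue) and trained (red) muscle of each of the 12 rats, joined by a line per rat, by days of training; each panel has its own axis. For Bgn, Dcn and Lum all 12 lines rise, for Fmod 9 and for Ogn 7.

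Biglycan was raised at every time point and, against the pooled controls, gave the highest fold changes of the 5 genes. In the paired fit lumican was the higher at 2 days, with a log2 fold change of 2.20 against 2.10 for Bgn; differences between members were not tested. The 12 contralateral muscles ranged from 3.86 to 9.01, with a median of 5.28. After 2 days of training the 3 muscles were at 18.1, 32.5 and 25.98, and after 10 days at 55.0, 42.1 and 33.2. After 20 days they were at 28.8, 30.6 and 27.7, and after 30 days at 20.7, 23.3 and 24.4. No trained muscle overlapped the contralateral range, and within rats the trained muscle held 2.29 to 7.84 times the contralateral value, with a median of 5.34. The log2 fold change was 1.99, 2.74, 2.20 and 1.86 at 2, 10, 20 and 30 days (SE 0.17 each), a 3.96-, 6.67-, 4.59- and 3.63-fold rise, with limma adjusted p of 3.49e-09, 1.28e-11, 9.72e-10 and 2.34e-08. All genes that had all 12 trained muscles above all 12 contralateral ones made up 2.93% of those tested, and Bgn and Lum were among them.

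Decorin rose less, and its start depended on which control was used. At 2 days the trained muscles were at 57.7, 80.8 and 61.2, inside the range of all contralateral muscles (32.4 to 91.9, median 70.3), but above the contralateral muscles of the same 3 rats, which were at 40.3, 38.1 and 39.6. The trained values were 131, 115 and 67.05 at 10 days. They were 143, 112 and 155 at 20 days and 122, 124 and 141 at 30 days. At 20 and 30 days all 6 trained muscles lay above every contralateral muscle, as for 8.23% and 7.48% of all genes at these times, whereas at 10 days rat 3 did not. Rat 3 of the 10-day group had the lowest contralateral value of all, 32.4, and the 4 rats with the lowest contralateral Dcn were also the 4 with the lowest trained Dcn. These 4 were that rat and the 3 rats of 2 days, so rat and time point can hardly be told apart here.

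Against the 12 pooled contralateral muscles the log2 fold change of Dcn was 0.12 at 2 days (95% interval -0.44 to 0.67, limma adjusted p = 0.781), 0.72 at 10 days (adjusted p = 0.0466), 1.15 at 20 days (adjusted p = 0.00298) and 1.08 at 30 days (adjusted p = 0.00557), with an SE of 0.27. Paired within rats, with animal as a block, it was 0.73, 0.65, 0.86 and 0.81 (SE 0.17), and it passed at all 4 times with limma adjusted p of 0.00696, 0.0134, 0.0032 and 0.00705. Within rats the trained muscle held 1.35 to 2.36 times the contralateral value, higher in 12 of 12 rats. All 12 trained muscles lay above their own contralateral muscle for Bgn, Dcn and Lum, against 8.45% of all genes. With contralateral muscles of the same day as a group of 3 and no pairing, Dcn passed at 20 days (adjusted p = 0.0459) and not at 2, 10 or 30 days (0.0758, 0.12 and 0.0758). The call at 10 days against pooled controls was also lost without the trained muscle of rat 1 (adjusted p = 0.269) or rat 2 (0.182) of that group. It was lost too, at adjusted p of 0.0524 to 0.0637, without any 1 control of the 2-day rats, of rat 3 of 10 or 20 days or of rat 1 of 30 days.

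Lumican rose at every time point, most at 2 and 10 days. Its contralateral values ran from 4.58 to 11.5, with a median of 8.09. The trained muscles were at 15.8, 38.3 and 30.4 after 2 days and at 43.1, 28.9 and 20.3 after 10 days. After 20 days they were at 17.8, 16.7 and 23.96 and after 30 days at 16.2, 17.2 and 18.7, and all 12 lay above the contralateral range. The log2 fold change over the pooled controls was 1.71, 1.85, 1.27 and 1.13 (SE 0.25), a 3.27-, 3.62-, 2.41- and 2.18-fold rise, with limma adjusted p of 1.5e-05, 4.2e-06, 5.88e-04 and 0.00214. With contralateral muscles of the same day as a group of 3, the 30-day difference was 0.85 (adjusted p = 0.0603), and with animal as a block it was also 0.85 (adjusted p = 0.0116).

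Fibromodulin was variable in both muscles and did not pass the test against the pooled controls at any time. Contralateral values ran from 2.32 to 7.54, with a median of 4.72. The trained values were 7.003, 13.02 and 2.75 at 2 days and 14.7, 3.34 and 4.25 at 10 days. They were 6.62, 13.4 and 9.78 at 20 days and 12.3, 2.11 and 9.57 at 30 days. The trained groups of 2, 10 and 20 days held muscles both inside and above the contralateral range, that of 30 days held muscles above and below it, and 9 of 12 rats had the higher value in the trained muscle. The log2 fold changes were 0.50, 0.42, 0.99 and 0.51 (SE 0.40; limma adjusted p 0.378, 0.48, 0.0842 and 0.405), with a 95% interval of 0.16 to 1.83 at 20 days. With animal as a block the 20-day difference was 1.33 and passed (SE 0.43, adjusted p = 0.0487), the trained muscle being 2.54 to 4.22 times as high as the contralateral one in 3 of 3 rats, as for 24.8% of all genes.

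Osteoglycin had the widest scatter and no fold change that passed. Contralateral values ran from 0.83 to 12.1, with a median of 2.99. At 2 days the trained muscles were at 4.70 and 0.76, with the third listed near 0, below the contralateral value in 3 of 3 rats, as for 29.1% of all genes. They were at 5.87, 4.55 and 1.70 at 10 days. The values of 20 days were 3.05, 1.21 and 9.13 and those of 30 days 3.38, 18.2 and 7.78. The log2 fold changes were -0.89, 0.23, 0.17 and 1.17 (SE 0.52; limma adjusted p 0.206, 0.788, 0.862 and 0.117), and their 95% intervals, -1.97 to 0.19 at 2 days and 0.09 to 2.25 at 30 days, leave both little change and severalfold change possible. The block did not alter these calls. Without the trained muscle of rat 1, the 2-day value was -1.59 and passed (adjusted p = 0.0366). At 30 days rat 2 was the highest of its group in both muscles, at 12.1 contralateral and 18.2 trained.

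**Figure D2:**
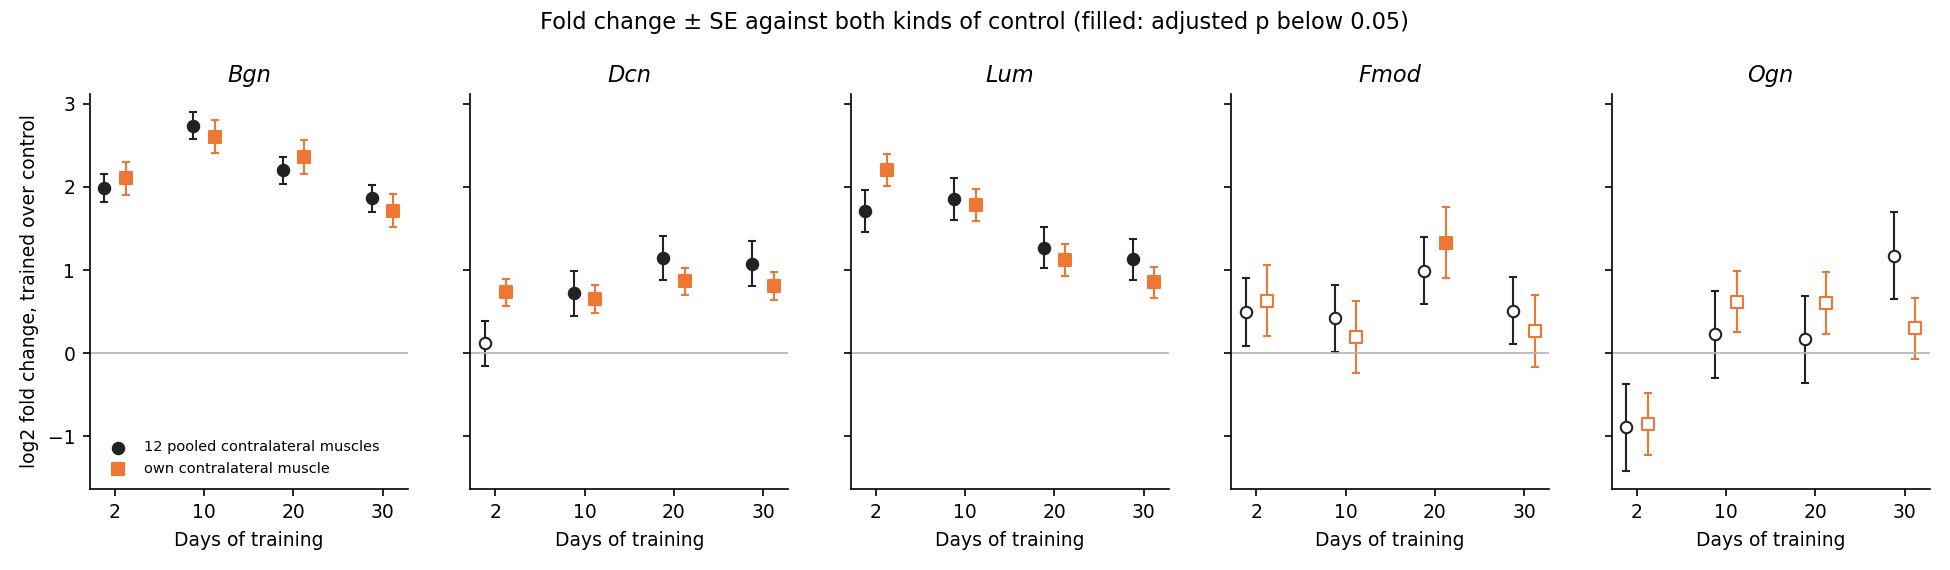
Log2 fold change of trained over control muscle by days of training, as the estimate ± SE from limma, against the 12 pooled contralateral muscles (black circles) and in the fit paired within rats (orange squares); filled symbols have an adjusted p below 0.05. Bgn and Lum are filled throughout, Dcn at 2 days and Fmod at 20 days are filled in the paired fit alone, and Ogn is open throughout.

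In counts, 2 of the 5 members were higher at 2 days and 3 at 10, 20 and 30 days, and none was lower. Among all genes 15.4%, 15.6%, 11.7% and 11.1% were higher and 13.5%, 13.3%, 9.64% and 9.46% lower at those times. In the paired fit 3, 3, 4 and 3 members were higher, against 11.8%, 12.1%, 9.94% and 7.21% of all genes, and with same-day controls 2, 2, 3 and 1, against 10.8%, 10.7%, 8.34% and 5.8%. Bgn and Lum were higher at all 4 times against the pooled controls, as were 5.24% of all genes, and in the paired fit Bgn, Dcn and Lum were, against 3.64% of all genes. The 4 comparisons share the 12 control muscles and so are not independent of each other. In whole muscle, more cells of a type and more RNA per cell cannot be told apart.

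The make-up of the 5-gene total is given as shares, which were not tested. Decorin had a mean share of 51.9% ± 3.61 at 2 days and 55.0% ± 3.84 at 10 days, and its share was 68.3% ± 3.66 at 20 days and 69.1% ± 1.65 at 30 days (SD, n = 3), against a contralateral range of 67.1% to 83.4%. All 6 trained muscles of the first 2 time points lay below that range. Biglycan took 19.6% ± 2.02, 23.3% ± 2.56, 14.8% ± 2.68 and 12.2% ± 0.40 at the 4 times, and lumican 21.2% ± 5.27, 16.1% ± 1.18, 9.72% ± 0.83 and 9.28% ± 0.02. The ratio of biglycan to decorin was 0.0988 ± 0.0419 in contralateral muscle (SD, n = 12), and 0.38 ± 0.0583, 0.427 ± 0.0657, 0.218 ± 0.0494 and 0.176 ± 0.01 in trained muscle. The total itself had a mean of 85.9 in contralateral muscle and of 130, 190.2, 199.7 and 187 in the trained groups.

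**Figure D3:**
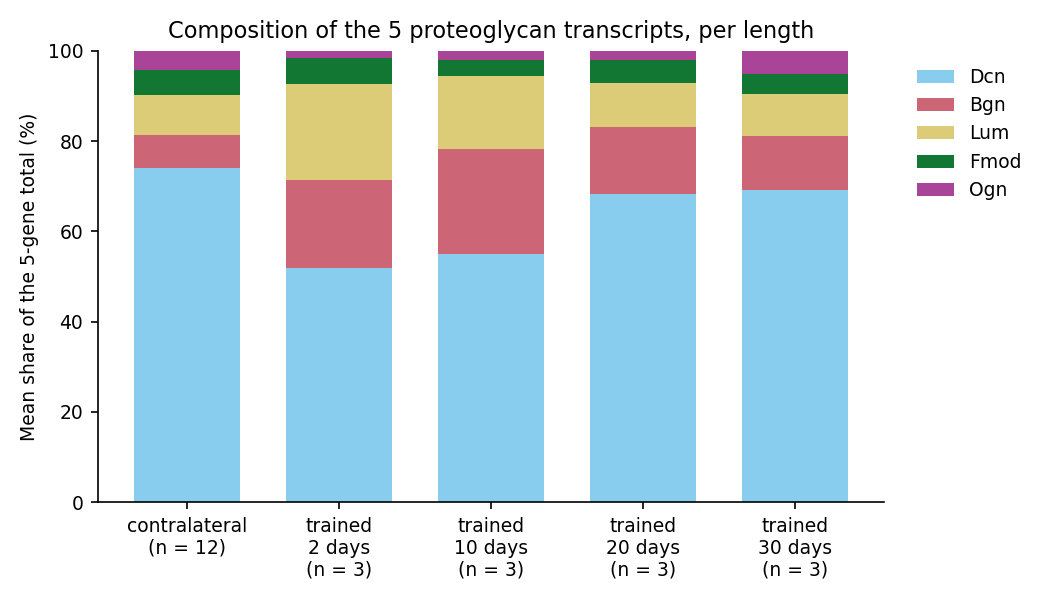
Mean share of each gene in the sum of the 5 scaled values, in percent, for the 12 contralateral muscles and the 3 trained muscles of each time point. Decorin is the largest part of every bar, at 74.1% in contralateral muscle and 51.9% after 2 days of training.

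Differences between training times were tested for each member by itself, and not between members. Biglycan was lower after 30 than after 10 days of training, by 0.88 on the log2 scale (SE 0.21, limma adjusted p = 0.0215), a contrast for which 3.94% of all genes passed; relative to the rats' own contralateral muscles the difference was -0.89 and did not pass (adjusted p = 0.248; 0.0804% of all genes passed). The lumican response was smaller at 30 than at 2 days in the paired fit, with a difference of -1.35 (SE 0.27, adjusted p = 0.0202; 2.8% of all genes passed), and the median ratio of trained to contralateral muscle went from 5.27 at 2 days through 3.75 and 2.14 to 1.78 at 30 days. Between the trained muscles alone, without their own controls, the lumican difference was -0.58 (adjusted p = 0.227). For decorin 30 minus 2 days was 0.96 between trained muscles and did not pass (95% interval 0.26 to 1.66, limma adjusted p = 0.0576). In the paired fit the decorin difference was 0.08 with a 95% interval of -0.43 to 0.59 (adjusted p = 0.898). Osteoglycin was 2.07 higher at 30 than at 2 days between trained muscles (SE 0.66, adjusted p = 0.0362; 15% of all genes passed) and 1.15 higher in the paired fit (adjusted p = 0.246). Both calls between trained muscles were lost without any 1 of 4 trained muscles, at adjusted p of 0.0568 to 0.137 for Bgn and 0.0852 to 0.192 for Ogn. Among the 4 contralateral groups none of the 5 members differed by the limma F test. The lowest was Dcn, with a limma adjusted p of 0.427 and an unadjusted limma p of 0.0147. Its mean was 39.3 ± 1.12 in the contralateral muscles of the 2-day rats (SD, n = 3), and 69.9 ± 32.7, 74.4 ± 7.83 and 73.95 ± 13.1 in those of 10, 20 and 30 days. In all 17 genes passed this test (0.152%), with 1012 at an unadjusted p under 0.05 (9.04%).

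Of 13 other members of the family, 8 were listed and 5 could be tested, and 3 of these, Prelp, Aspn and Tsku, were called higher. Tsku was at 0.36 ± 0.083 in contralateral muscle (SD, n = 12), so it passed the filter of 1 through trained muscles alone. Its rise and its place among the 5 tested are thus not independent of the filter. Prelp, an anchor between collagen and basement membranes, rose 1.75-, 1.91- and 1.89-fold at 10, 20 and 30 days, from 6.90 ± 1.99 in contralateral muscle (SD, n = 12; limma adjusted p 0.00529, 0.00228 and 0.00304), and in the paired fit it also passed at 2 days (adjusted p = 0.0141) and missed at 30 days (0.0896). Aspn, a neighbour of Ogn that binds collagen and restrains transforming growth factor beta, rose at every time. On the log2(value + 1) scale its rise was 1.99-, 2.60-, 1.78- and 2.33-fold. Its mean scaled values were 4.59, 6.23, 3.88 and 5.69, against 1.75 ± 0.47 in contralateral muscle. Tsku rose 1.55-, 1.42-, 1.28- and 1.29-fold on that scale, with mean scaled values of 1.16, 0.93, 0.76 and 0.76 against 0.36. In the paired fit Aspn passed at every time and Tsku missed at 20 and 30 days (adjusted p 0.15 and 0.12), which left 3, 3, 2 and 1 of the 5 higher. Aspn and Tsku lie outside the rule for named genes and were chosen after their values were seen. Kera, the neighbour of Lum, did not pass at any time, with adjusted p of 0.154 to 0.852. Of these neighbours Ogn did not pass while Aspn did, and Kera did not while Lum and Dcn did; the differences between neighbours were not tested.

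The collagens that these proteoglycans bind rose as a group. All 9 that could be tested were higher at all 4 times, with a median log2 fold change of 1.19, 1.62, 1.41 and 0.98 against -0.01, -0.03, -0.03 and -0.01 over all genes. Col1a1, a chain of the main fibril collagen, went from 32.9 ± 12.9 in contralateral muscle to 111 ± 32.4 at 2 days and 210.3 ± 104 at 10 days (SD, n = 3). Its trained mean was 153 ± 19.7 at 20 days and 74.9 ± 5.70 at 30 days. Col3a1, the fibril collagen of elastic and healing tissue, reached 349 ± 107 at 10 days from 56.9 ± 18.7, a 6.22-fold rise (limma adjusted p = 8.01e-08). Col6a1 and Col6a2, chains of the beaded collagen around muscle fibers that biglycan and decorin bind, were 3.74- and 3.62-fold higher at 10 days and 2.03- and 1.97-fold at 30 days. In the paired fit 9, 9, 8 and 7 of the 9 collagens were called.

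**Figure D4:**
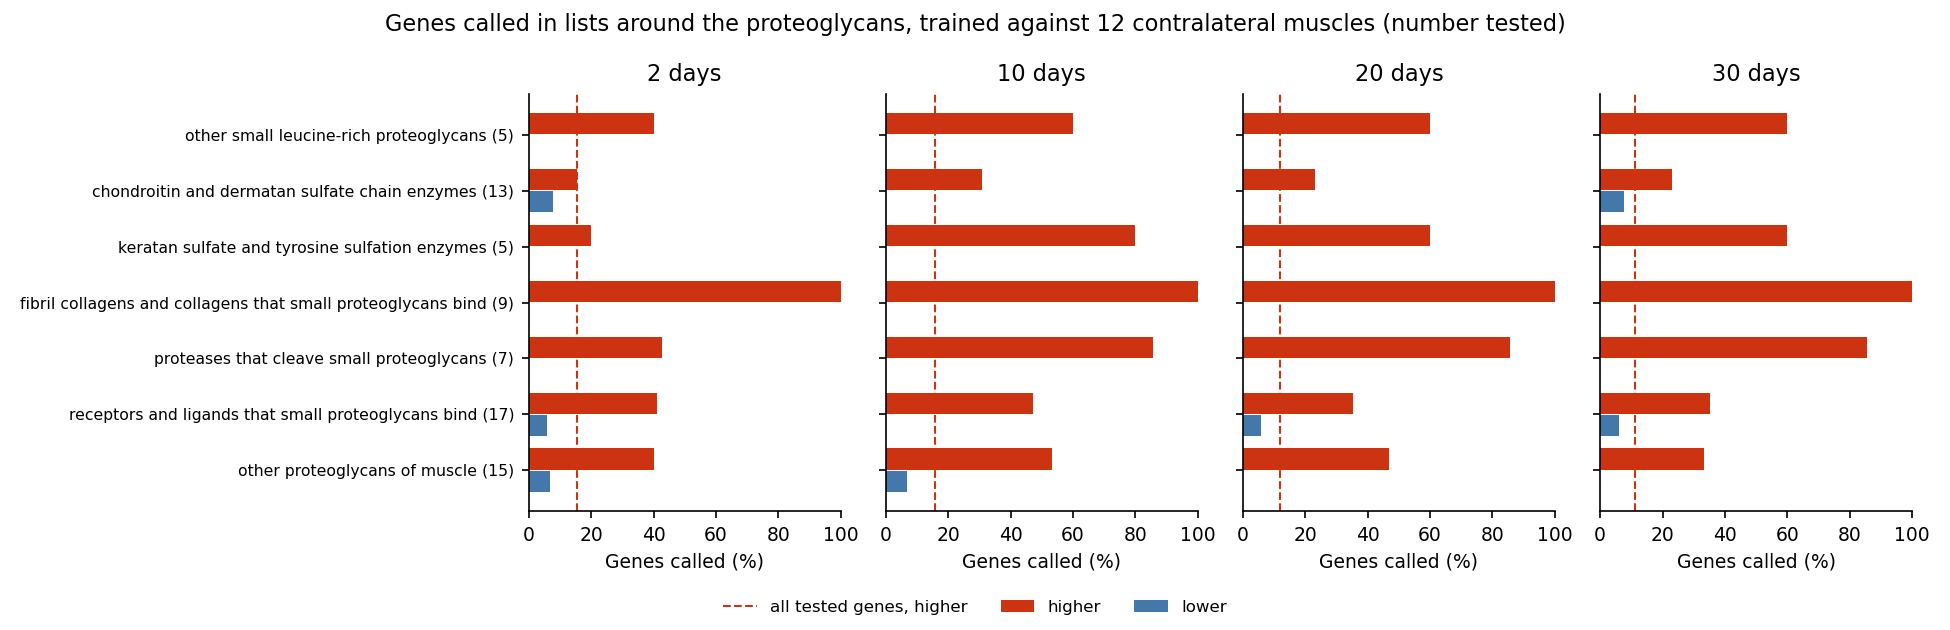
Percent of the tested genes of each list that were called higher (red) or lower (blue) against the 12 pooled contralateral muscles, by days of training, with the number tested in parentheses; the dashed line is the percent called higher among all genes (15.4, 15.6, 11.7 and 11.1). The collagen bar reaches all 9 genes at each time, and the chondroitin and dermatan sulfate enzymes are nearest to the line.

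The next lists hold the enzymes that build the sulfate chains. Of 13 enzymes of chondroitin and dermatan sulfate chains, 2, 4, 3 and 3 were higher and 1, 0, 0 and 1 lower at 2, 10, 20 and 30 days, with medians between -0.16 and 0.27; in the paired fit 4, 3, 2 and 2 were higher. Chsy1, which polymerizes the chain, and Dse, which converts it to dermatan sulfate, were the 2 that passed at all 4 times, at log2 fold changes of 0.48 to 1.07 and 0.44 to 0.73; in the paired fit Dse missed at 30 days. Both were chosen after their values were seen. B3gat3, which completes the linker to the core protein, fell by 0.34 on the log2 scale at 30 days (SE 0.12, limma adjusted p = 0.0469), and with animal as a block it missed (adjusted p = 0.211). Of 5 enzymes of keratan sulfate and tyrosine sulfation, 1, 4, 3 and 3 were higher and none lower, and in the paired fit 0, 2, 2 and 2 were.

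Proteases cleave the core proteins and the collagens around them. Of 7 proteases and enhancers that act on them, 3 were higher at 2 days and 6 at 10, 20 and 30 days, and in the paired fit 5, 6, 4 and 5 were. Pcolce, the enhancer of procollagen C-proteinase, rose 2.80-, 3.34-, 2.74- and 1.78-fold from 7.51 ± 1.80. Mmp2, a gelatinase that cleaves decorin, did not pass against the pooled controls at 2 days (log2 fold change 0.06, adjusted p = 0.852) but 0.59 higher than in the own contralateral muscle (adjusted p = 0.0157), as with Dcn, and rose 2.08-, 2.44- and 2.04-fold afterwards. Adamts1 rose 1.99-, 2.07-, 1.56- and 1.45-fold and Htra1 1.57-, 1.79-, 1.75- and 1.44-fold; Adamts1 missed at 20 days in the paired fit (adjusted p = 0.0614).

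Of 17 receptors and ligands, 7, 8, 6 and 6 were higher and 1, 0, 1 and 1 lower, and in the paired fit 8, 7, 6 and 3 were higher. Ccn2, a matricellular growth factor that decorin binds, rose 3.06-, 3.32-, 1.94- and 2.04-fold from 7.39 ± 0.96, and missed at 30 days in the paired fit (adjusted p = 0.058). Tgfb2 rose 1.92- and 1.57-fold at 2 and 10 days and did not pass at 20 and 30 days (log2 fold change 0.02 and 0.33, adjusted p 0.957 and 0.117). Tgfb1 was higher at all 4 times, by 0.89, 1.20, 0.94 and 0.66 on the log2 scale. Myostatin (Mstn), a growth inhibitor of muscle that decorin can bind, was higher at 2 days by 0.75 (adjusted p = 0.0143) and lower at 20 and 30 days (-0.98 and -1.04; adjusted p 0.00263 and 0.00178). Tgfb1 and Mstn were chosen after their values were seen.

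Of 15 other proteoglycans of muscle, 6, 8, 7 and 5 were higher and 1, 1, 0 and 0 lower, and in the paired fit 6, 7, 5 and 3 were higher. Sdc4, a heparan sulfate proteoglycan of focal adhesions, rose 2.49-, 3.05-, 3.05- and 2.41-fold from 10.0 ± 5.92, and Sdc2 rose 1.66-, 1.57- and 1.44-fold at 2, 10 and 30 days. Gpc4, a lipid-anchored heparan sulfate proteoglycan, fell by 0.31 and 0.42 on the log2 scale at 2 and 10 days (adjusted p 0.039 and 0.00591), and the 10-day call was lost in the paired fit (adjusted p = 0.263). Prg4, the lubricant lubricin, rose 1.36-fold at 30 days (adjusted p = 0.0276) and missed in the paired fit (0.262).

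Markers of cell types were tested in the same fits. From 10 days on, those of macrophages and of fibroblasts were called higher most often. Against the pooled controls 15.4%, 15.6%, 11.7% and 11.1% of all genes were higher at the 4 times, and 13.5%, 13.3%, 9.64% and 9.46% lower. In the paired fit 11.8%, 12.1%, 9.94% and 7.21% were higher. Of 11 tested markers of fibroblasts and fibro-adipogenic progenitors, 4, 9, 10 and 9 were higher at 2, 10, 20 and 30 days, with 7, 9, 8 and 6 in the paired fit, and their part in the results above was not tested. The summed value of the 12 listed markers was 164 to 314 in contralateral muscles. In trained muscles it was 223 to 296 at 2 days and 366 to 631 at 10 days. It was 642 to 676 at 20 days and 556 to 626 at 30 days, and Dpp4 was under 1 in every muscle. Gsn weighed most in the sum, with a mean of 134 of 236 in contralateral muscle, 125 of 260 at 2 days and 444 of 660 at 20 days. At 2 days Gsn did not pass (limma adjusted p = 0.819), while Lox, Mfap5, Pdgfra and Smoc2 did. The 4 rats with the lowest Dcn, rat 3 of 10 days and the rats of 2 days, also had the lowest contralateral sums, 164 to 189. Their trained sums were the lowest as well, 223 to 366. At 2 days the sum was higher in the trained muscle of 3 of 3 rats, at 223 against 189 in rat 1, 296 against 180 in rat 2 and 259 against 176 in rat 3. These trained sums lay above all contralateral sums of that day and within the range of the 12 contralateral muscles. Macrophage markers were called higher in 7, 8, 9 and 9 of 9, with summed values of 18.3 to 42.7 in contralateral and 55.0 to 168 in trained muscles. Adgre1, which completed the 9 of 9 at 20 and 30 days, was under 1 in all 12 contralateral muscles. It therefore passed the filter through trained muscles alone. Tenocyte markers, which bear on Fmod, a gene strong in tendon, were called in 1, 3, 3 and 0 of 8, with 2, 2, 3 and 0 in the paired fit. Of the factors that define tenocytes, Mkx was under 1 in every muscle, and Scx had a mean of 5.79 in contralateral muscle and rose to 13.7 at 10 days and 12.8 at 20 days (adjusted p 0.00369 and 0.0361; paired 0.00346 and 0.0411). Thbs4 rose at 2, 10 and 20 days, from 7.498 to 23.2, 25.6 and 17.7. Tnmd rose at 20 days, the time at which Fmod passed in the paired fit, from 1.25 to 3.48 (adjusted p = 0.0257, paired 0.0239). Tppp3, the highest of the 8 in contralateral muscle at 39.5, passed at 10 days against the pooled controls, at 65.3 (limma adjusted p = 0.0232, paired 0.476). At 2 days Tppp3 passed in the paired fit alone (limma adjusted p = 0.12, paired 0.0391). At 20 days Tppp3 was at 32.3 and did not pass (limma adjusted p = 0.465, paired 0.489). Comp, Cilp2, Angptl7 and Fibin passed at no time in either fit. These genes were chosen after their values were seen, and their part in the Fmod result was not tested. Among muscle fiber markers 4, 4, 4 and 3 of 8 were lower and 0, 2, 0 and 0 higher. The counts for endothelium, of 7 markers, were 0, 2, 3 and 3 higher and 1, 0, 0 and 0 lower, and for smooth muscle and pericytes, of 8, they were 3, 3, 2 and 2 higher and 1, 0, 0 and 0 lower. Adipocyte markers, of 4, were higher in 0, 1, 1 and 1, and of 6 Schwann cell markers 2 were lower at 30 days.

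**Figure D5:**
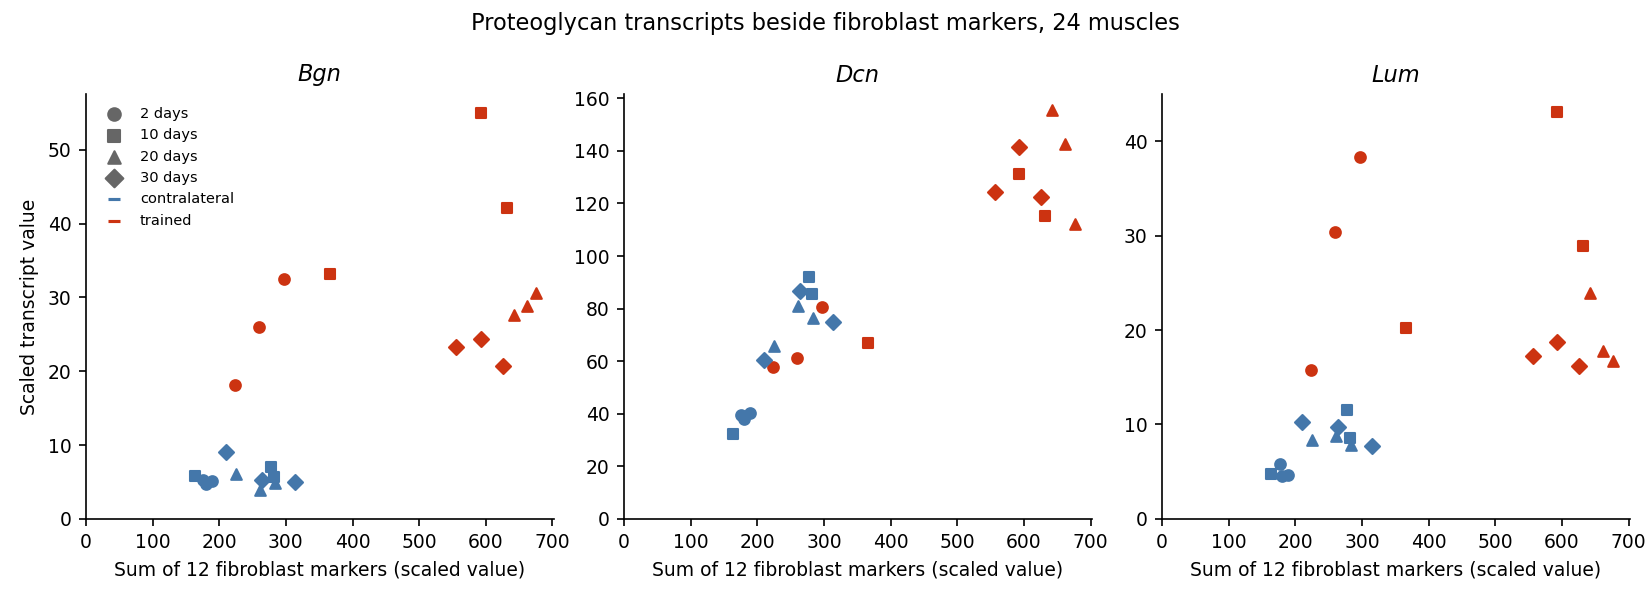
Scaled value of Bgn, Dcn and Lum (vertical) against the summed scaled value of 12 fibroblast markers (horizontal) in the 24 muscles, contralateral in blue and trained in red, with symbols for the days of training. Gsn weighed most in the sum. Trained 2-day muscles (red circles) have sums of 223 to 296, above the 176 to 189 of the same rats' contralateral muscles and inside the 164 to 314 of all contralateral muscles.

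Over the 12 rats, the difference between trained and contralateral muscle on the log2 scale was compared between each member and about 3840 genes with a mean value of at least 10, as a description. The closest to Bgn were Cdh13 (Pearson r = 0.914), Pea15 (0.866), Vim (0.844), Mgp (0.841) and Dnaja4 (0.832). For Lum they were Col3a1 (0.924), Capn2 (0.924), Tmem117 (0.913), Fn1 (0.909) and Usp47 (0.901), and for Dcn they were Tardbp (0.843), Ifitm2 (0.837), Lamp2 (0.773), S100a6 (0.744) and Ywhaq (0.735). The closest to Fmod were AABR07044388.2 (0.814), Timp3 (0.734), Actn4 (0.723), Ifitm2 (0.715) and Dcn (0.656), and to Ogn they were Pdp1 (0.894), Itm2a (0.835), Ide (0.813), Zfr (0.788) and Synj2bp (0.787). The rats of 1 time point share their training, and the highest of some 3840 values is high by selection.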

How the data were processed

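RNA of both tibialis anterior muscles of 12 rats was sequenced by the authors after poly-A selection. Per the labels and the study's methods, STAR, run within Partek Flow, placed the reads on rn6 (Rnor_6.0), and Ensembl transcripts were quantified. Values deposited by the authors under the name of DESeq2-normalized counts, read here as TPM-type, cover 20027 transcripts. They sum to 634431 in every sample, so depth is unknown. No whole read counts are held, and the count models named in the methods were not run. A second table deposited by the authors, a gene-level signal corrected for gene span and sample, holds 4635 genes and 4 of the 5 members and served as an alternative. The authors also deposited their own comparisons (p-values and ratios), not used here.

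Values were divided by median-of-ratios factors from the 16230 transcripts above 0 in all samples, summed per gene symbol, filtered (at least 1 in at least 3 muscles), and fitted as log2(value + 1) with limma 3.58.1 in R 4.3.3, in 5 groups. A paired fit had animal as a replicate block. Pairing comes from the labels, which tie both muscles to 1 rat: deviations from group means had a median r of 0.174 within rats (12 pairs, 8 over 0.1, lowest 0.0277) and 0.00835 between rats of different days. The fit was tested on simulated data. Of 276 library pairs 0 were identical. The labels hold 3 rats per time point, 1 library per muscle. Members and lists were chosen with earlier results of these data known. Genes named are the members, from each list no more than 4 called genes, taken by size of change where the mean reached 10, and the 5 genes most like each member. Software was Python 3.11.15 with pandas 2.3.3, numpy 2.4.6 and matplotlib 3.10.9. Alternatives were the paired fit, contralateral muscles of the same day, values as deposited, a pseudocount of 0.1, no filter, the highest transcript per gene, the gene-level table, an intensity trend, thresholds of 0.01 and each muscle left out in turn; the paired fit without rat 1 of 30 days, whose contralateral sample factor was the lowest, was added after the data were seen.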

Additional observations from a re-analysis of the deposited data

Results flagged for a closer look

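Differences between training times were flagged where the test of the difference itself passed. Relative to the rats' own contralateral muscles, the Lum response at 30 days minus that at 2 days was -1.35 on the log2 scale (SE 0.27, limma adjusted p = 0.0202). Between trained muscles fitted with the 12 pooled controls, Ogn at 30 minus 2 days was 2.07 (SE 0.66, adjusted p = 0.0362) and Bgn at 30 minus 10 days was -0.88 (SE 0.21, adjusted p = 0.0215). The Ogn difference was 1.15 and the Bgn difference -0.89 in the paired fit, where neither passed (adjusted p 0.246 and 0.248), and the Lum difference was -0.58 between trained muscles alone (adjusted p = 0.227). With same-day controls and no pairing the Lum difference did not pass (limma adjusted p = 0.0757). The Ogn value rests on 3 trained muscles at 2 days of which 1 is listed near 0: without that muscle it was 1.51 (adjusted p = 0.192), and without rat 2 of the 30-day group it was 1.52 (adjusted p = 0.177). It was also lost without trained rat 2 of 2 days (adjusted p = 0.135) or rat 3 of 30 days (0.0852). The Bgn difference was lost without trained rat 1 or 2 of 10 days (adjusted p 0.137 and 0.0664) or rat 1 or 2 of 30 days (0.0648 and 0.0568), and the lumican difference between trained muscles passed without trained rat 1 of 2 days (-0.94, adjusted p = 0.0419).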

How the results depend on the processing

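Bgn was called at all 4 times and Lum at 2, 10 and 20 days under every alternative run. With same-day controls 1 member, Bgn, passed at 30 days, against 3 as reported. Animal as a replicate block left that count at 3 and, of the members' calls against control, altered those of Dcn at 2 days and Fmod at 20 days. Dcn at 30 days missed in the gene-level table (adjusted p = 0.0633) and in the paired fit without rat 1 of that day (0.0541), an alternative added after seeing the data, in which Fmod at 30 days was -0.20. Dcn at 10 days also missed with a pseudocount of 0.1 (0.0594), no filter (0.0619) and the highest transcript per gene (0.0511). The number of member differences between trained days that passed was 2 as reported. It was 5 on the values as deposited and at an unadjusted p below 0.01, 1 with no filter, with the highest transcript per gene and with animal as a replicate block, and 0 at an adjusted p below 0.01; leaving out 1 muscle it ranged from 0 to 4. Deposited values moved the median of all genes by 0.09, 0.10, -0.0004 and -0.17 on the log2 scale at 2, 10, 20 and 30 days, and no member's call against control changed with them. Signs turned only for values that had not passed. Leaving out 1 muscle at a time, Dcn at 2 days ranged from -0.029 to 0.21, Fmod at 10 days from -0.16 to 0.77, and Ogn from -0.051 to 0.62 at 10 and from -0.42 to 0.68 at 20 days. The list genes ranged from -0.34 to 0.023 for B3gat3, -0.031 to 0.17 for Gpc4 and -0.090 to 0.073 for Tgfb2 at 20 days, from -0.065 to 0.081 for Gpc4 at 30 days, and from -0.018 to 0.14 for Mmp2 and -0.0024 to 0.23 for Prg4 at 2 days. With the block or same-day controls B3gat3 was -0.060 at 2 days and Gpc4 -0.027 at 20 days. In the gene-level table B3gat3 was 0.099 at 10 days, and Gpc4 at 30 days was -0.18 on deposited values and -0.10 in the paired fit without rat 1. The cause was not tested for any of these. Counts over all genes moved most with same-day controls (2007, 1589 and 1121 at 10, 20 and 30 days, against 3240, 2393 and 2304 as reported), in the paired fit at 30 days (1377, and 885 without rat 1), without the trained muscle of rat 2 of 2 days (1513 against 3235), rat 1 of 10 days (2147), or rat 2 or 3 of 30 days (1472 or 1492), and at an adjusted p below 0.01 (1958, 2050, 1420 and 1296).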
